A study of Mus musculus with 6 samples.

Results

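The comparison was between cultured mouse ovarian surface epithelial tumour cells heterozygous for the R172H mutation of p53 and the same kind of cells with wild-type p53. It used the 4 arrays of these genotypes, 2 heterozygous and 2 wild-type, out of 6 arrays in the series. Genes were described when both heterozygous arrays lay above, or both lay below, both wild-type arrays. This held for 2828 of 10916 tested genes, out of 18194 genes with a named probe set.

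Cells of the ovarian surface epithelium, the layer that covers the ovary, were taken from tumours, digested with trypsin, plated and used without passage. The series asks which transcripts go with the status of p53. Both wild-type samples came from animals of 9 weeks, heterozygous sample 1 from an animal of 9 weeks and heterozygous sample 2 from an animal of 12 weeks. The homozygous R172H samples, which enter only as values beside the others, came from animals of 4 weeks. A source label of these samples names Trp63 in place of Trp53, and their titles, which name the p53 mutation, were followed. Every sample title carries the same prefix P/K, which the labels used here do not spell out, so the wild-type cells share whatever it stands for. The strain background was mixed, and nothing in the labels says whether the 2 wild-type samples came from separate tumours. The p-values therefore measure the spread between these arrays only. RNA was labelled and hybridised to Affymetrix mouse arrays, and the deposited linear signals were compared on the log2 scale.

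p53 is a transcription factor that binds DNA as a tetramer and switches on genes of cell cycle arrest, cell death and repair after damage. The R172H change alters the fold of its DNA-binding domain, and mutant subunits can join wild-type ones in mixed tetramers. Among its targets, Cdkn1a blocks cyclin-dependent kinases, Pmaip1 (Noxa) and Bbc3 (Puma) promote cell death, and Mdm2 marks p53 itself for destruction.

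Signals of these 4 arrays had medians of 49.7 to 60.6 against a background level of 24.5, the highest signal of a bacterial control. All 24 listed markers of surface epithelium and mesothelium lay above background in all 4 arrays. Wt1, a transcription factor of the mesothelial lineage, read 15008 and 14759 in the wild-type arrays and 14529 and 13269 in the heterozygous arrays. Aldh1a2, which makes retinoic acid, read 17461 and 18974 against 19538 and 17988. The surface markers were thus abundant in both genotypes. Of lymphocyte markers, 6 of 11 measured were under background in all 4 arrays, as were 2 of 13 endothelial and 4 of 10 oocyte markers, while 0 of 19 myeloid markers were.

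The promoters of 4 genes whose arrays did not overlap are printed because the text returns to them: Cdkn1a and Ccng1, p53 targets lower in the heterozygous arrays, and Rsad2 and Ifit3, interferon-induced genes higher there. Each is the 250 bases before the gene start in RefSeq (GRCm38.p6), 5′ to 3′ on the gene's strand. Capitals mark matches to the p53 half-site in the first pair and to the interferon-stimulated response element (GAAA, any 2 bases, GAAA, on either strand) in the second. The positions are chr17:29090729-29090978 (plus strand) for Cdkn1a, chr11:40755287-40755536 (minus strand) for Ccng1, chr12:26456453-26456702 (minus strand) for Rsad2 and chr19:34583279-34583528 (plus strand) for Ifit3.
Cdkn1a: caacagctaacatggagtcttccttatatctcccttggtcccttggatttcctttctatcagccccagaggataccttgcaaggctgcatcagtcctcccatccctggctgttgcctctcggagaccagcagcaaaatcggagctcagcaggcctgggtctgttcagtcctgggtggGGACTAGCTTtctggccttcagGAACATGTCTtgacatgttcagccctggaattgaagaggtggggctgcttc
Ccng1: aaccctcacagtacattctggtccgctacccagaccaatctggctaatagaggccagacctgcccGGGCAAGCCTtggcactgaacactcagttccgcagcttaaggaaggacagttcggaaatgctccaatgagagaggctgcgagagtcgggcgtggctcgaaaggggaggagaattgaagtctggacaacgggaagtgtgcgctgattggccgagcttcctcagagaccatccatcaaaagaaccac
Rsad2: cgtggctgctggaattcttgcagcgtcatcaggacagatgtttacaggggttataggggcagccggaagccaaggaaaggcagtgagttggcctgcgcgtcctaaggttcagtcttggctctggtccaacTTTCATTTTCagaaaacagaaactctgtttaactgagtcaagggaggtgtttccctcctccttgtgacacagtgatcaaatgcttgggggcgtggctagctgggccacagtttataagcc
Ifit3: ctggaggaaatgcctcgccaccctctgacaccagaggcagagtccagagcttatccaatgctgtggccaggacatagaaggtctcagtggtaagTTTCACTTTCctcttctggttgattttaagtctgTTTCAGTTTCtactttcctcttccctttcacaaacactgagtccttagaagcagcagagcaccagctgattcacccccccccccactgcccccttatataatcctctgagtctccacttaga
In Cdkn1a the matches begin 73 and 51 bases before the start, and in Ccng1 185 bases before it. The Rsad2 match begins 120 bases before the start and those of Ifit3 156 and 122 bases before it. A match is a description of the letters and not a measured binding site.

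Arg1, Srgn, Rsad2 and the cell adhesion gene Cdh1 were among the genes that stood furthest above the wild-type pair in both heterozygous arrays, and Hsd3b1, Abcg1 and the p53 target Pmaip1 among those furthest below it. None of these differences passed the test across all genes. limma called 0 of 10916 genes (0%) at an adjusted p under 0.05, and the smallest adjusted p was 1. At an unadjusted p under 0.05 it listed 194 genes (1.78%), and the smallest p, that of Hsd3b1, was 0.00106. What follows is a description of arrays that do not overlap, and no gene is called changed.

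Genes outside the wild-type pair made up 25.9% of those tested: 1456 were higher in the heterozygous arrays (13.3%) and 1372 lower (12.6%). Of the possible orders of 2 against 2 arrays, a share of 0.333 does not overlap. The count is below that share, so by itself it does not show a genotype difference. In another 1946 genes, 1 heterozygous array lay above and the other below the wild-type pair. The differences of the outside genes were mostly small. Their median size was 0.33 on the log2 scale, against 0.17 over all tested genes, and in 1444 of them the gap between the nearest arrays of the groups was under 0.1. Only 104 had a gap of at least 0.5, with 60 higher and 44 lower. A mean difference of at least 2-fold was seen in 127 outside genes (1.16%), of which 71 were higher (0.65%) and 56 lower (0.513%).

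The split between higher and lower depended on scaling. With the arrays centred on their median signal, the median difference over all genes moved from 0.005 to 0.079, and 1838 outside genes were higher and 974 lower. The 2-fold split then became 99 higher and 43 lower, or 69.7% higher against 55.9% in the deposited scale. Leaving out an array makes it easier to lie outside, since that group then has a single array. The 2-fold count became 200 without wild-type array 1, 678 without wild-type array 2, 571 without heterozygous array 1 and 201 without heterozygous array 2, and the count of all outside genes 6301, 7488, 7339 and 6372 in the same order.

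At the edge of the rule, Fut10 lay just outside with signals of 112 and 218 in the wild-type arrays and 235 and 218 in the heterozygous arrays. Hoxb6 just overlapped, at 184 and 86.5 against 184 and 189. Stxbp6, at 746 and 1142 against 1615 and 2109, just reached 2-fold with a difference of 1.00.

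The gene with the widest gap above the wild-type pair was Arg1, which encodes arginase, an enzyme that splits arginine to urea and ornithine. Its signal was 108 and 84.9 in wild-type arrays 1 and 2 and 290 and 551 in heterozygous arrays 1 and 2. The arrays of the genotypes were well apart, with a log2 difference of 2.06 ± 0.37 (limma SE, n = 2 per group; 95% interval 1.14 to 2.98). Srgn, the core protein of a secretory granule proteoglycan of blood cells, read 517 and 451 against 1480 and 1159, a difference of 1.44 ± 0.26. Itgb2, the beta chain of leukocyte integrins, read 77.2 and 62.0 against 194 and 147, or 1.29 ± 0.27. Both genes were higher in both heterozygous arrays by more than their spread within a genotype.

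Cdh1, which encodes E-cadherin of epithelial adherens junctions, gave 165 and 106 in the wild-type arrays and 316 and 311 in the heterozygous arrays. The heterozygous arrays nearly coincided, and the difference was 1.25 ± 0.30. Prrx1, a homeobox gene of mesenchyme, was equally tight within each genotype, at 114 and 117 against 231 and 223 (0.98 ± 0.23), but 3 of its 6 probe sets shared the direction without overlap. Genes of both epithelial and mesenchymal character therefore stood among those furthest above the wild-type pair.

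Pgr, the progesterone receptor, had the largest mean difference of the outside genes, 2.88 ± 0.86, and also a wide spread. Its signal was 42.1 and 184 in the wild-type arrays and 346 and 1208 in the heterozygous arrays, so wild-type array 2 and heterozygous array 1 were much closer to each other than to the outer arrays, and the difference was 1.81 without wild-type array 1. Esr1, the oestrogen receptor alpha, read 1447 and 2948 against 3447 and 4271 (0.89 ± 0.39), a difference of 0.50 when its 3 probe sets were averaged and 0.38 without wild-type array 1.

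The remaining genes with the widest gaps upward were Prdm11, Acsf2, 4930447F24Rik, Plet1 and Trpm6. Prdm11 read 49.5 and 17.2 in the wild-type arrays, the second under background, and 116 and 307 in the heterozygous arrays. Its difference of 2.69 ± 0.66 came from 1 of its 2 probe sets. Acsf2, a mitochondrial acyl-CoA synthetase, read 93.1 and 107 against 204 and 288 (1.28 ± 0.28). Plet1 read 354 and 558 against 1000.1 and 1330 (1.38 ± 0.32).

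Downward, the widest gap was that of Hsd3b1, which converts pregnenolone to progesterone in steroid synthesis. It read 261 and 139 in the wild-type arrays and 43.1 and 27.8 in the heterozygous arrays, the latter near background. Its log2 difference was -2.46 ± 0.40 (95% interval -3.45 to -1.47). Abcg1, a cholesterol exporter, followed with 154 and 121 against 54.7 and 28.9 (-1.78 ± 0.37), in 1 of its 2 probe sets. Both genes handle sterols and were several times lower in both heterozygous arrays.

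Adgrb2, an adhesion receptor coupled to G proteins, was the brightest of the 12 genes with the widest gaps downward. Its arrays gave 1435 and 1263 against 678 and 651, with little spread in either genotype and a difference of -1.02 ± 0.23. Gpr182, a chemokine-binding receptor, gave 282 and 230 against 125 and 116 (-1.08 ± 0.24). Bcat1, the cytosolic aminotransferase of branched-chain amino acids, gave 163 and 138 against 71.7 and 76.0 (-1.02 ± 0.24). Tnfaip6, a hyaluronan-binding protein, gave 155 and 101 against 60.3 and 49.3 (-1.20 ± 0.30), and Cemip, which takes part in hyaluronan breakdown, 292 and 235 against 142 and 72.9 (-1.36 ± 0.38). The others were 5530601H04Rik, Rdh9, Pmaip1, Nacc1 and Tnfsf13os, with differences from -1.33 for Nacc1 to -0.99 for Tnfsf13os.

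**Figure D1:**
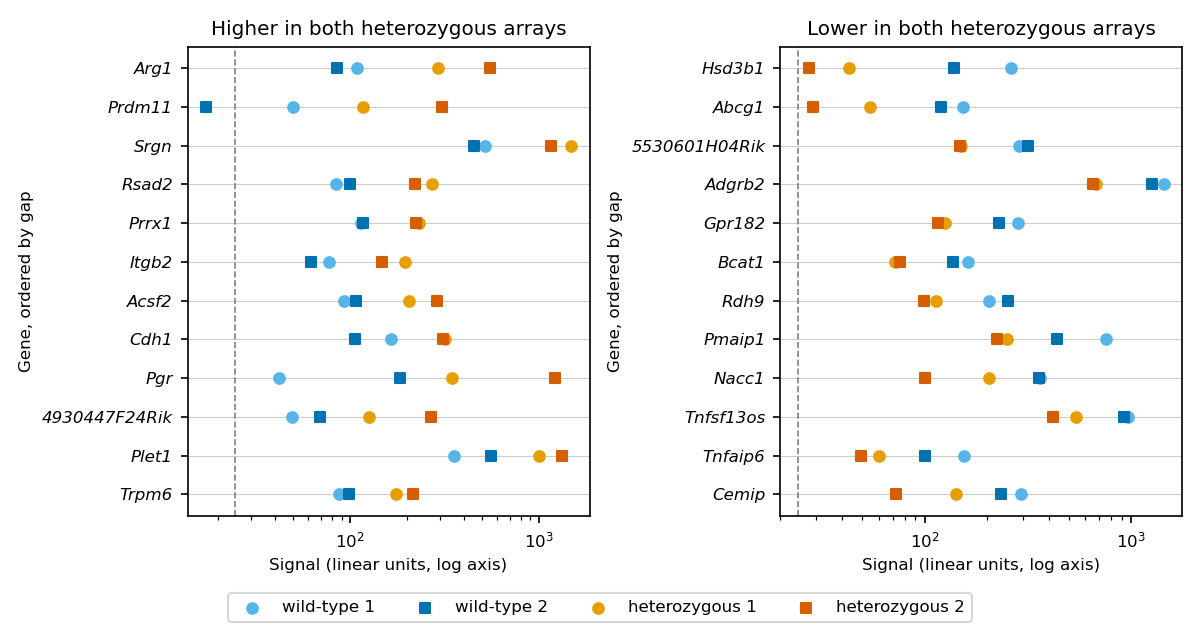
Signals of the 12 genes with the widest gap above (left) and below (right) the wild-type pair, on a log axis; each point is 1 array and the dashed line is the background level of 24.5. In every gene the 2 heterozygous arrays (orange) lie on the same side of both wild-type arrays (blue), and in Pgr the points spread from 42.1 to 1208.

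Agreement between probe sets was partial. Of the 127 genes at least 2-fold apart, 65 had several probe sets. In 18 of these every probe set lay outside in the same direction, and in 31 only the probe set that represents the gene did. When all probe sets of a gene were averaged, the difference of Rsad2 was 0.73 instead of 1.42, that of Plet1 0.87 instead of 1.38, that of Nacc1 -0.43 instead of -1.33 and that of 5530601H04Rik -0.40 instead of -1.02. Arrays under background were few: 5 of the 127 had any such array, and 0 outside genes had both arrays of a genotype under it.

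Genes of dividing cells differed between the arrays of each genotype. A growth score, the mean log2 signal of 62 genes of mitosis and DNA replication, was 9.74 and 10.99 in wild-type arrays 1 and 2, and 10.96 and 9.44 in heterozygous arrays 1 and 2. Each genotype thus held 1 array with a high score and 1 with a low score. The score differed by -0.17 between genotypes (exact permutation test, two-sided, p = 0.667; the smallest p possible with 2 against 2 is 0.333). Its sign rested on single arrays: it was 0.46 without wild-type array 2 and 0.59 without heterozygous array 2.

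Mki67, a protein of dividing nuclei, read 1246 and 4031 in the wild-type arrays and 4351 and 966 in the heterozygous arrays. Top2a, the topoisomerase that untangles DNA before division, read 2053 and 5568 against 5671 and 1887. The DNA replication helicase gene Mcm5 read 2635 and 4618 against 4599.5 and 1006, and its difference of -0.70 ± 0.73 was within the spread. In each of these genes the genotypes overlapped. Across the score's genes, 0 of 62 lay outside the wild-type pair, as did 0 of 21 tested DNA repair genes, beside 25.9% of all tested genes. Heterozygous array 2 had the lowest score and the older animal, so a low score and age cannot be told apart in that array.

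The number of genes apart varied widely between pairs of arrays. Wild-type array 2 and heterozygous array 1, whose scores differed by 0.03, had 134 genes at least 2-fold apart. The 2 wild-type arrays, whose scores differed by 1.25, had 955, and the 2 heterozygous arrays, with a score difference of 1.52, had 760. The other cross-genotype pair with scores fairly close, wild-type array 1 and heterozygous array 2 (0.30), still had 910. Close scores therefore went with few differences in 1 cross-genotype pair and not in the other.

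The genes outside the wild-type pair were weakly related to the growth score. The slope of a gene is its change in log2 signal per unit of score, fitted within genotypes. Its median size was 0.09 for the outside genes and 0.17 for all tested genes, against a median slope of 1.06 for the score's own genes. A slope of at least 0.5 in size was found in 1131 tested genes (10.4%) and in 43 of the outside genes (1.52%). Non-overlap itself limits how far the arrays of a genotype can spread, so a low slope is partly built into the choice of these genes. Among the 127 genes at least 2-fold apart, 26 (20.5%) had such a slope.

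**Figure D2:**
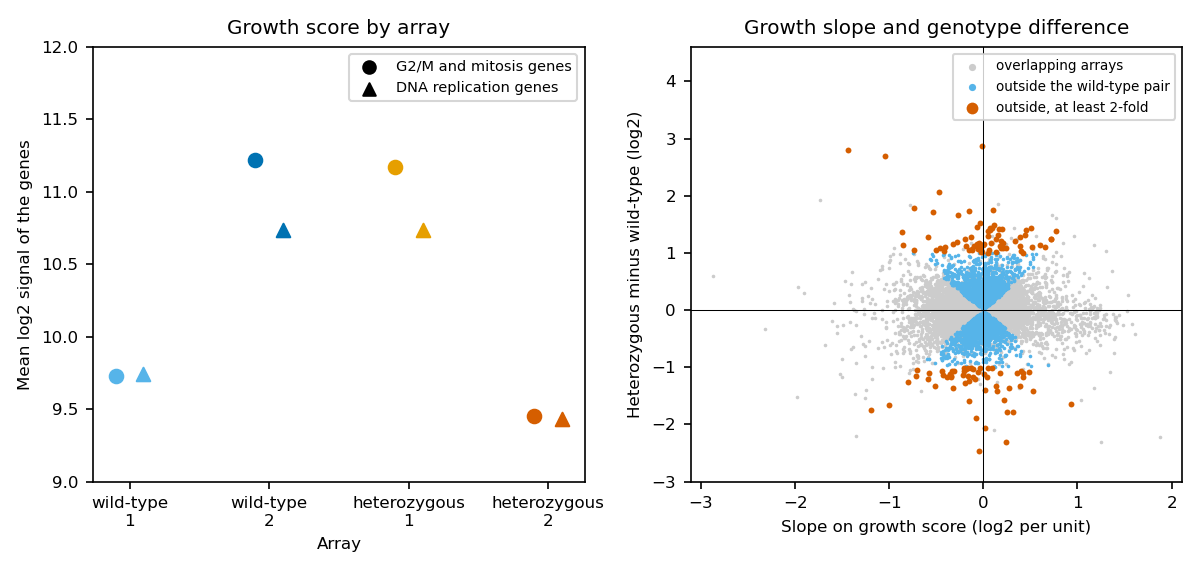
Left, mean log2 signal of mitosis genes (circles) and DNA replication genes (triangles) in each array. Right, each tested gene by its slope on the growth score and its heterozygous minus wild-type difference, both on the log2 scale; the score is high in wild-type array 2 and heterozygous array 1 (10.99 and 10.96) and low in the other 2 arrays, and the genes outside the wild-type pair (blue and orange) cluster around slope 0.

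With the score in the model, 0 of the 2828 outside genes changed sign, the median shift was 0.0145, and 120 of the 127 remained at least 2-fold apart. The score differed by only -0.17 between genotypes and the outside genes have low slopes by their choice, so small shifts are built in and say nothing of persistence. The median residual SD fell from 0.255 to 0.179, but limma still called 0 of 10854 genes (0%), with 372 (3.43%) at an unadjusted p under 0.05 and 1 residual degree of freedom. Among the 10854 tested genes outside the score, 178 were at least 2-fold apart before and 200 at equal score. Of these 200, 68 had overlapping arrays. Ces5a, a carboxylesterase named after its values were seen, was such a gene, at 658 and 523 in the wild-type arrays and 725 and 21.8 in the heterozygous arrays, so its fitted difference rested on heterozygous array 2.

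More of the 2-fold differences were seen between the arrays with low growth scores than between those with high scores. Of the 127 genes, 28 were also at least 2-fold apart between wild-type array 2 and heterozygous array 1, and 114 between wild-type array 1 and heterozygous array 2. Their median absolute difference was 0.57 in the first pair and 1.86 in the second. For 81 of them the first pair were the inner arrays, with wild-type array 1 and heterozygous array 2 at the ends. The same order held for 1369 of all 2828 outside genes. In the background of all tested genes, 1.23% were 2-fold apart in the first pair and 8.34% in the second.

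Genes at least 2-fold apart in the same direction in both pairs numbered 18, a description added after the data were seen. 8 were higher in the heterozygous arrays, among them Arg1, Srgn, Rsad2, Prdm11 and Cd52, and 10 were lower, among them Hsd3b1, Abcg1, Inha and Rdh9. Cd52, a surface glycoprotein of leukocytes, read 63.5 and 82.5 against 223 and 138. Ltbp2, an extracellular matrix protein of elastic fibres, read 262 and 208 against 430 and 629. Within the 18, 3 genes overlapped between genotypes, each with its higher signal in the array of a genotype with the lower growth score. The amino acid transporter Slc7a8 read 807 and 194 against 77.8 and 266. Car3, a carbonic anhydrase, read 661 and 82.6 against 33.4 and 199, and Slc52a3, a riboflavin transporter, 250 and 88.2 against 28.7 and 111.

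Targets of p53 lay below the wild-type pair more often than above it. Of 50 listed targets, 44 were tested; 13 were lower in both heterozygous arrays (29.5%, beside 12.6% of all genes) and 2 higher (4.55%, beside 13.3%). The list's median difference was -0.20, against 0.005 over all tested genes, and it lay between -0.24 and -0.16 when any single array was left out. With median-centred arrays 11 were lower and 4 higher, with a median of -0.12. The list was chosen with results of these arrays known, so its direction is a description.

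Cdkn1a, whose product halts the cell cycle by binding cyclin-dependent kinases, had close replicates. It read 2519 and 2646 in the wild-type arrays and 1548 and 1437 in the heterozygous arrays, a log2 difference of -0.79 ± 0.23 (95% interval -1.36 to -0.23; limma, unadjusted p = 0.0147, adjusted p = 1). Both of its 2 probe sets lay outside in this direction. The difference was -0.77 in the pair with high growth scores and -0.81 in the pair with low scores, so it was of like size in both pairs. The slope of Cdkn1a on the score was 0.06. Btg2, an antiproliferative gene, read 4106 and 3214 against 2442 and 2061 (-0.70 ± 0.26). Ccng1, a cyclin that p53 induces, read 9663 and 10011 against 7279 and 7657 (-0.40 ± 0.23). These arrest genes were all lower in both heterozygous arrays. Other listed targets were not: Gadd45a differed by 0.14 and Plk2 by 0.58, the highest of the list, both with overlapping arrays.

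Among targets of cell death, Pmaip1 had the widest gap. It read 754 and 438 in the wild-type arrays and 250 and 225 in the heterozygous arrays, or -1.28 ± 0.33. Eda2r, a death-inducing receptor for ectodysplasin, read 408 and 497 against 269 and 150 (-1.17 ± 0.35), and -0.74 without heterozygous array 2. Bbc3 read 264 and 174 against 141 and 144 (-0.59 ± 0.29), and differed by -0.29 without wild-type array 1. Fas, the death receptor, overlapped at 148 and 186 against 159 and 137. The death genes thus included members well outside the wild-type pair and a member that overlapped it.

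Feedback and stress targets gave smaller differences. Mdm2 read 1192 and 942 against 939 and 933, with a gap of -0.005 between the nearest arrays on the log2 scale. Sesn2, a stress-induced inhibitor of mTOR signalling, read 393 and 321 against 212 and 299 (-0.50 ± 0.28), while its relative Sesn1 overlapped at 3865 and 2867 against 3735 and 3365. The other targets lower in both heterozygous arrays were Aen, Ei24, Epha2, Polk and Thbs1, with differences from -0.48 for Epha2 to -0.20 for Polk. Higher were Ddb2, which recognises ultraviolet damage in DNA, at 254 and 332 against 357 and 481, and Cyfip2, at 127 and 70.7 against 130 and 136. With probe sets averaged, Ddb2 differed by 0.22 instead of 0.51.

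In the homozygous arrays the same p53 targets gave values on either side. Cdkn1a read 192 and 111, below all 4 other arrays, as did Ccng1 at 3497 and 2842. Mdm2, at 1136 and 1253, did not. These values are set beside the others without a test, since homozygous cells came from younger animals.

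The p53 half-site was found within the 250 upstream bases of 6 of the 11 lower targets that had a promoter entry: Aen, Ccng1, Cdkn1a, Ei24, Mdm2 and Polk. Over all tested targets it was found in 11 of 33. Over all genes with a RefSeq mouse promoter window of this length it was found in 2216 of 27025 (8.2%). Both strands were searched. Targets with a match included genes with overlapping arrays, such as Sesn1, and in Cdkn1a the printed window belongs to 1 of 2 listed starts.

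**Figure D3:**
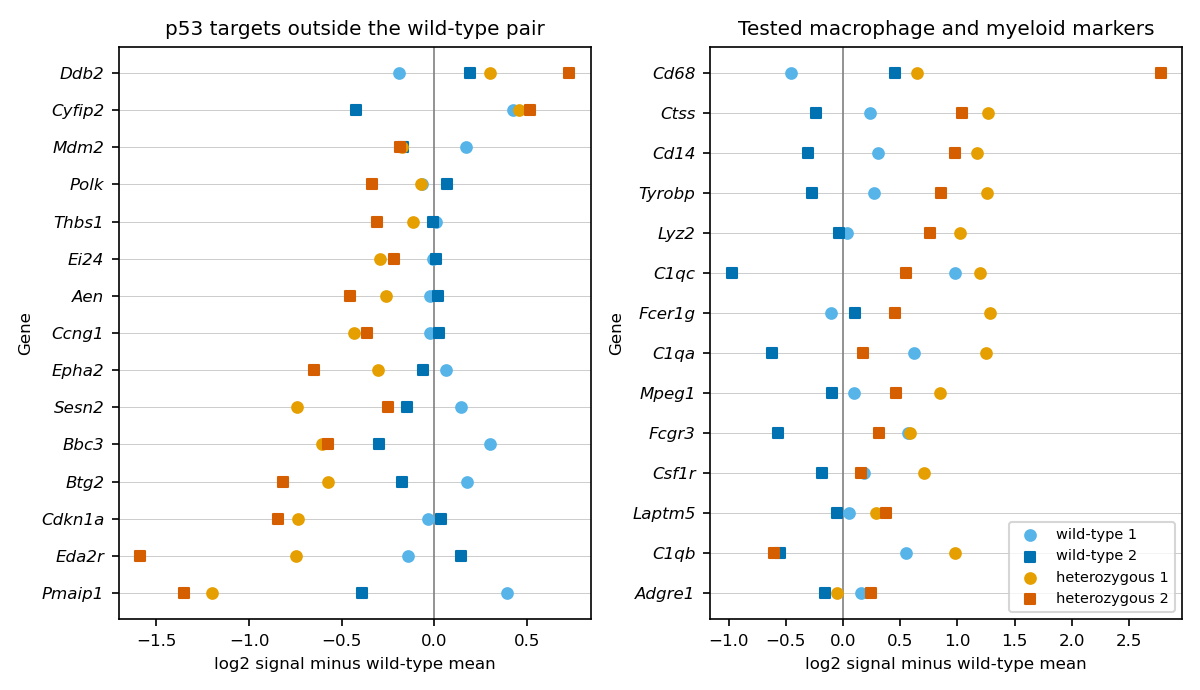
Log2 signal of each array minus the wild-type mean, for the 15 p53 targets outside the wild-type pair (left) and the 14 tested macrophage and myeloid markers (right). Cdkn1a, Pmaip1 and Eda2r show both heterozygous arrays well to the left, while Ctss, Lyz2 and Tyrobp show them to the right and Adgre1 shows all 4 arrays together.

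Markers of macrophages and other myeloid cells were higher in the heterozygous arrays. Of 20 listed, 14 were tested, and 8 of these lay above the wild-type pair (57.1%, beside 13.3% of all genes) and 0 below it. The median difference of the 14 was 0.79. The filter on mean signal let in Cd14, Fcgr3 and C1qc only through their heterozygous arrays, so the count and median are partly set by it. With no filter, 10 of 19 lay above the pair and 0 below it, with a median of 0.71. Over all genes 28.7% then lay outside, both directions together. The summed signal of the 14 tested markers was 3520 and 2830 in the wild-type arrays and 5988 and 5918 in the heterozygous arrays. The median was 0.97 without wild-type array 1, 0.42 without wild-type array 2, 0.42 without heterozygous array 1 and 1.1 without heterozygous array 2. In bulk RNA, more cells of a type and more RNA per cell cannot be told apart.

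Ctss, a lysosomal protease of antigen-presenting cells, read 660 and 476 in the wild-type arrays and 1347 and 1152 in the heterozygous arrays (1.15 ± 0.27). Lyz2, the lysozyme of myeloid cells, read 603 and 577 against 1200 and 999 (0.89 ± 0.24), and may share hybridisation with its near-identical paralog Lyz1. Tyrobp, a signalling adaptor of myeloid receptors, read 126 and 86.5 against 249 and 189 (1.06 ± 0.30). These genes did not overlap between genotypes. Cd68, a lysosomal protein of macrophages, was higher mainly in heterozygous array 2, at 180 and 337 against 386 and 1687. Cd14, Mpeg1, Fcer1g and Laptm5 were the other markers above the wild-type pair.

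Defining macrophage markers did not all follow. Adgre1, which encodes F4/80, read 141 and 114 in the wild-type arrays and 122 and 150 in the heterozygous arrays. Csf1r, the receptor for the main macrophage growth factor, read 770 and 599 against 1111 and 756. Both overlapped, as did C1qa, C1qb, C1qc and Fcgr3. Ptprc, which encodes CD45 of all leukocytes, was dim throughout at 61.1 and 55.5 against 83.8 and 65.9. It was too dim to be tested, though both heterozygous arrays lay above the wild-type pair. Among the genes with the widest gaps, Srgn, Itgb2 and Arg1 are also expressed by myeloid cells, and the part of such cells in their differences was not tested.

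Interferon-induced genes were above the wild-type pair in 8 of 18 tested members (44.4%, beside 13.3% of all genes) and below it in 1, with a median difference of 0.25. Rsad2, or viperin, an antiviral enzyme, read 83.6 and 99.9 in the wild-type arrays and 271 and 220 in the heterozygous arrays (1.42 ± 0.25). It was of like size in both growth-matched pairs, 1.44 and 1.39. Ifit3, an RNA-binding antiviral protein, read 37.7 and 72.2 against 102 and 121 (1.09 ± 0.37), and differed by 0.62 without wild-type array 1. It passed the filter on mean signal only through its heterozygous arrays. With no filter, 8 of 23 members lay above the pair and 2 below it, beside 28.7% of all genes outside in both directions together. Ifit1, of the same family, read 152 and 163 against 194 and 186, a difference of 0.27 ± 0.23. The largest of the 18 differences in size was that of Ifi204, an interferon-inducible DNA sensor named after its values were seen, whose arrays overlapped at 827 and 38.6 against 41.3 and 36.1. Cxcl10 (-0.65), Gbp2 (-0.46) and Gbp3 (-0.44) were also lower on average, with overlapping arrays. Gbp2 read 4030 and 5530 against 4450 and 2634.

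In Irf7, the transcription factor that amplifies the response, wild-type array 1 alone was low, at 69.2 against 157 in wild-type array 2 and 177 and 175 in the heterozygous arrays. The RNA sensor Ifih1 had the same form, at 276 and 808 against 913 and 876. Ifit2, Oasl2 and Ddx58 were the other members above the pair, though Ddx58 was lower (-0.25) with its probe sets averaged, and Ifi27 lay below it. The response element was found upstream of 3 of the 8 higher members (Ifit1, Ifit3 and Rsad2) and of 8 of 16 tested members with a promoter entry. Over all genes with a promoter window it was found in 936 of 27025 (3.46%). The list median was 0.12 without wild-type array 1, and between 0.24 and 0.28 without any of the others. The myeloid marker sum was higher in the same arrays, and its part in the interferon genes was not tested.

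Genes of class I antigen presentation gave 7 of 12 tested members above the wild-type pair (58.3%, beside 13.3% of all genes) and 0 below it (beside 12.6%), with a median of 0.39. H2-K1, a classical class I heavy chain, read 5379 and 6856 against 8651 and 8756 (0.52 ± 0.25). B2m, the shared light chain, read 8756 and 11656 against 14089 and 12228 (0.38 ± 0.26). The peptide transporter gene Tap2 read 140 and 262 against 271 and 321. In each of these genes wild-type array 1 was the lowest. The list median was 0.08 without that array, 0.64 without wild-type array 2, 0.33 without heterozygous array 1 and 0.42 without heterozygous array 2. The class I heavy chain genes resemble each other closely, and their probe sets may share signal.

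Among junction and keratin genes, 6 of 17 tested were above the wild-type pair (35.3%, beside 13.3% of all genes) and 1 below it (5.88%, beside 12.6%), but the median was 0.03. It was 0.00 without wild-type array 1, 0.46 without wild-type array 2, -0.17 without heterozygous array 1 and 0.22 without heterozygous array 2. Besides Cdh1, the tight junction gene Cldn4 read 77.6 and 59.5 against 114 and 102 (0.66 ± 0.26). It passed the filter on mean signal only through its heterozygous arrays. With no filter, 10 of 25 members lay above the pair and 1 below it, beside 28.7% of all genes outside in both directions together. The desmosomal cadherin gene Dsg2 read 918 and 1849 against 3055 and 2166 (0.98 ± 0.40). Spint1, Ocln and Pkp2 completed the members above the pair. Krt7, a keratin of simple epithelia and the member below the pair, read 17640 and 17717 against 16318 and 11838.

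Granulosa and theca markers, genes of the hormone-producing cells of the follicle, were below the wild-type pair in 4 of 9 tested members (44.4%, beside 12.6% of all genes) and above it in 0. Their median was -0.18, and it was -0.09 without wild-type array 1, -0.24 without wild-type array 2, -0.10 without heterozygous array 1 and -0.33 without heterozygous array 2. Besides Hsd3b1, Inha, the alpha subunit of inhibin, read 2322 and 1179 against 562 and 914 (-1.21 ± 0.42), and -0.72 without wild-type array 1. Inhba, the subunit of inhibin and activin A, read 432 and 438 against 287 and 294 (-0.58 ± 0.23), with arrays that nearly coincided within each genotype. Nr5a1, the steroidogenic transcription factor, was barely outside, at 736 and 651 against 621 and 649. The other tested members overlapped. Fst had the highest difference of the list, 0.61, at 437 and 268 against 416 and 659. Amhr2 read 8463 and 7575 against 6364 and 7869, and Star 4144 and 2364 against 1588 and 2516. Foxl2 and Inhbb overlapped as well. Hsd3b1 passed the filter on mean signal only through its wild-type arrays. With no filter, 5 of 14 members lay below the pair and 0 above it, beside 28.7% of all genes outside in both directions together. The members lower by more than 2-fold were Hsd3b1 and Inha. Whether they came from follicle cells or from the epithelium was not tested.

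Surface epithelium markers gave 1 of 24 above the wild-type pair (4.17%, beside 13.3% of all genes) and 5 below it (20.8%, beside 12.6%), with a median of -0.07. In either direction 25% lay outside, near the 25.9% of all genes. Lhx9, a gonadal transcription factor, read 5271 and 4673 against 4011 and 3195 (-0.47 ± 0.25). Tcf21 was the higher member, at 1795 and 2005 against 2289 and 2912, a difference of 0.44 that was 0.14 with probe sets averaged. Of mesenchymal genes 3 of 13 were above the pair (23.1%, beside 13.3% of all genes) and 0 below it. The largest signal among them was that of Fn1, or fibronectin, at 9376 and 9273 against 15145 and 14723 (0.68 ± 0.23). Fn1 was outside in both of its 2 probe sets.

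**Figure D4:**
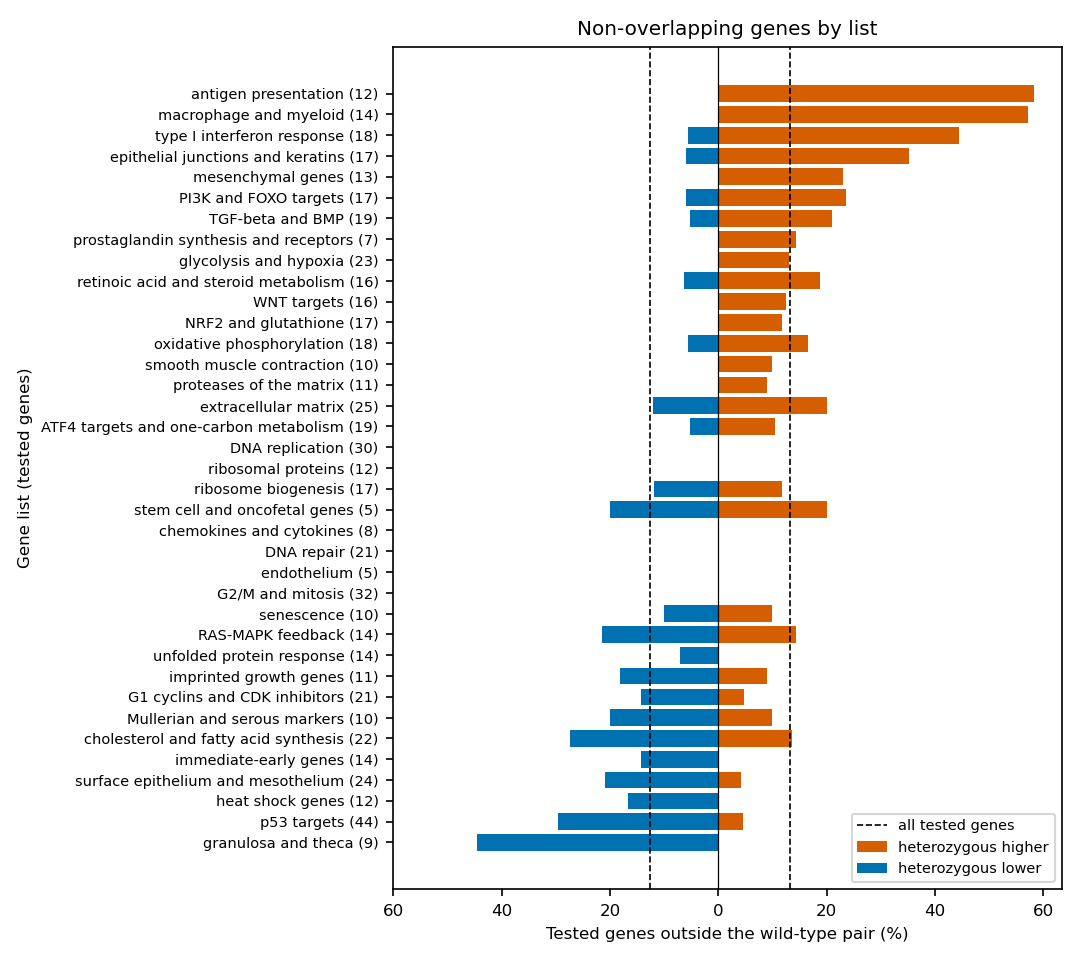
Percent of the tested members of each gene list with at least 5 tested members that lay above (right) or below (left) the wild-type pair in both heterozygous arrays; numbers in brackets are tested members, and dashed lines are the shares over all tested genes, 13.3% and 12.6%. Among these lists, antigen presentation, myeloid and interferon genes reach furthest to the right, and granulosa and theca genes and p53 targets furthest to the left. The lists with no bar are mitosis, replication, DNA repair, endothelium, ribosomal proteins, and chemokines and cytokines.

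Members of further lists are given beside the shares of all tested genes, 13.3% above and 12.6% below the pair. Cyclins and inhibitors of the G1 phase had 1 of 21 tested members above the pair (4.76%) and 3 below it (14.3%). Cdkn2b, an inhibitor of CDK4 and CDK6, read 899 and 931 against 1117 and 1106 (0.28 ± 0.23), and Ccnd3, cyclin D3, 1723 and 1926 against 1242 and 1400 (-0.47 ± 0.24). The latter was -0.03 with its 3 probe sets averaged. Cdkn2a, from the neighbouring locus, overlapped at 639 and 237 against 492 and 598. Cholesterol and fatty acid synthesis had 3 of 22 members above (13.6%) and 6 below (27.3%). TGF-beta and BMP genes had 4 of 19 above (21.1%) and 1 below (5.26%). Ribosomal protein genes had 0 of 12 outside in either direction, and chemokines and cytokines 0 of 8, beside 25.9% of all genes.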

How the data were processed

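The authors deposited 1 table of linear signal intensities for 45101 probe sets. The submitters' processing notes name RMA, for which no version is given in those sources. Signals are linear, with a mean over the middle 96% of probe sets of 499.8 in each of the 4 arrays, which is the form of MAS 5.0 signals. Each deposited intensity was log2-transformed without an offset. Dim signals of this kind spread widely on the log2 scale.

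Of the probe sets, 34958 carried 1 gene symbol in the platform annotation, of which 34754 were matched by Entrez identifier to a RefSeq gene table. Those with several symbols (932) or none (9211) were not used. Each gene took its probe set with the highest mean over the 4 arrays, and the test took genes whose geometric mean signal reached 71.0, the 40th percentile. Some genes reached this only through the arrays of a single genotype. Among them, Prdm11, Cd14, Ifit3 and Cldn4 did so through the heterozygous arrays, and Hsd3b1, Abcg1 and Tnfaip6 through the wild-type arrays. The transcript of the mutated gene is not reported here.

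limma 3.58.1 in R 4.3.3 was fitted to the 4 arrays alone, with 2 residual and 3.61 prior degrees of freedom and Benjamini-Hochberg adjustment. A second fit had the growth score as a covariate. The procedure was tested on simulated data. Background is the highest of 18 Trpn control values. Figures used Python 3.11.15 and matplotlib 3.10.9.

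The genes and lists were chosen with earlier results of these data known. The text names the 12 widest gaps in each direction, up to 4 outside members of a list, and a fixed set of p53 and growth genes. The rule also picked 2 bright other members of each list, and most of those are not named. Of that set, Bax and Ccnb1 were not analysed here. Other members are named only to account for a list, or are said to be chosen after their values were seen. The main fit did not pair arrays by replicate number. Deviations of same-numbered arrays correlated at -0.3, which cannot show whether samples were prepared in pairs. Alternatives were other scalings, filters, probe set rules, arrays left out and all 6 arrays.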

Additional observations from a re-analysis of the deposited data

How the results depend on the processing

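limma called 0 genes under every alternative run, with 61 (all 6 arrays) to 850 (without wild-type array 2) at an unadjusted p under 0.05. With growth score as a covariate it also called 0, with 77 to 961. The count outside the wild-type pair was 5223 with no filter, 1829 with a filter at the 60th percentile, and 6301 to 7488 with an array left out. The 2-fold count was 1652 with no filter, 39 with a 60th percentile filter, 234 when probe sets were averaged, and 200 to 678 with an array left out. A looser filter tests more dim genes, and a group of 1 array overlaps less easily. The growth score difference ran from -0.93 to 0.59 with an array left out. When probe sets were averaged, the differences of Insr (-0.16), Znrf3 (-0.37), Sdha (-0.10) and Ddx58 (-0.25) were reversed, since other probe sets of these genes were lower in the heterozygous arrays. Of the values for single genes, 3062 were unmoved, 118 moved and 4 reversed. Unmoved means a shift no larger than the gene's residual SD. Leaving out an array cannot shift the same probe set by more than that SD, so the counts say nothing of dependence on single arrays. Only genes outside the wild-type pair could be counted as reversed. With the replicate block limma called 0 genes (214 at an unadjusted p under 0.05). The numbers may be crossed, and the crossed pairing, chosen after seeing the data, gave 0 calls as well (477). The fit at equal growth was not run with an array left out or with the block, as no residual degree of freedom remained. With 2 arrays per group, precision is limited by their number, and signals near 24.5 carry little order.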
